A study of Mus musculus with 6 samples.

Results

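The mitochondrial ribosomal proteins measured here were the 76 genes whose symbol on the array is Mrpl or Mrps followed by a digit, out of 18193 genes with a symbol of their own. A gene entered through the probe sets annotated with exactly 1 symbol, and its value was the mean of them. The Mrpl symbols covered 47 genes and the Mrps symbols 29, with 156 probe sets in all. In the study, Matrigel plugs, gels of basement membrane proteins, were implanted intraperitoneally in mice of the Balb/c nude background, and endothelial cells that had entered them were profiled. The MFAP5 group had plugs reconstituted with recombinant microfibrillar-associated protein 5, a secreted glycoprotein of elastic microfibrils, and the Control group had plugs without it. Each group had 3 samples, each on 1 single-colour Affymetrix Mouse Genome 430 2.0 array. Both groups shared the strain, the gel and the site, and the labels give no age, sex or time in the animal. The sources used here do not say how endothelial cells were parted from the other cells of a plug. The labels do not say whether each sample came from its own animal, so p-values measure the spread between these samples, which may be technical.

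Mitochondria translate the few proteins encoded by their own DNA, all of them parts of the respiratory chain and the ATP synthase, on ribosomes of their own. The RNA of these ribosomes comes from mitochondrial DNA, while every ribosomal protein is encoded in the nucleus, made in the cytosol and imported. Some of the proteins descend from the bacterial ribosome and others were gained in mitochondria. Endothelial cells are known to draw much of their ATP from glycolysis, and brown adipocytes are rich in mitochondria.

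The deposited values were relative log signals, taken as base 2, in which each probe set has a median of 0 over the 6 arrays. A value of -0.50 therefore places an array below the middle of that probe set and gives no level, so genes cannot be ranked by abundance and the endothelial label cannot be checked by the presence of markers. No filter on low signal could be applied, and all 76 genes were tested. In a gene with 1 probe set whose groups do not overlap, the centring makes the highest MFAP5 value and the lowest Control value equal in size and opposite in sign.

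Start regions from RefSeq (GRCm38.p6), each with 250 bases before and 50 after the annotated start of the gene, were held for 67 of the 76 genes. Those of the 3 genes with the largest differences past the test are printed. That of Mrpl32 is printed because it holds the most matches to the palindromic NRF1 core. Mrpl32, which encodes a large-subunit protein, was chosen after its matches were seen. Capitals mark letters that match 1 of 3 short motifs on either strand.
Mrps22: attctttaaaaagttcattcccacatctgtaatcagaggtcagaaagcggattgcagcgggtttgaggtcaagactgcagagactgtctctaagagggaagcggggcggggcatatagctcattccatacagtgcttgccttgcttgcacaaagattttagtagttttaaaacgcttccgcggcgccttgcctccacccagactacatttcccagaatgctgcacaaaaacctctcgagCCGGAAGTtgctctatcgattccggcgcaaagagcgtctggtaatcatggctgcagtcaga
Mrpl49: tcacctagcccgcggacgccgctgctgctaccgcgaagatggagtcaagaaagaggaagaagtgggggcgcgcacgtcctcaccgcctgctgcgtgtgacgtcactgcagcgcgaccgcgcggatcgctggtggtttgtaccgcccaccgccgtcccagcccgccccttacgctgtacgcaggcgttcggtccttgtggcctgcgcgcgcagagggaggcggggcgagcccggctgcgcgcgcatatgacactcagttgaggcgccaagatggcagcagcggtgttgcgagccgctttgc
Mrpl12: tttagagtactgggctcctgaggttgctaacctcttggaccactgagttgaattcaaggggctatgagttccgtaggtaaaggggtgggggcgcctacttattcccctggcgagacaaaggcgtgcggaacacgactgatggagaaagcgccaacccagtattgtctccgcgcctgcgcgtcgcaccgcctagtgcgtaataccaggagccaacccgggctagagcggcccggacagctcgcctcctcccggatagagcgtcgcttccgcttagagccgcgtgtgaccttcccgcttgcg
Mrpl32: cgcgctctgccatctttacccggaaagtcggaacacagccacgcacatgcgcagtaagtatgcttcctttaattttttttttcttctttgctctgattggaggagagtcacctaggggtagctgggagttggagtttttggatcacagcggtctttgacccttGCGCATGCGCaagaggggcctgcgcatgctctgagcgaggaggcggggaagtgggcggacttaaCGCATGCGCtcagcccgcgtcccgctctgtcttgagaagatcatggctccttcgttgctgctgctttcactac
The first lies on the minus strand at chr9:98601630-98601929, the second on the minus strand at chr19:6057706-6058005, the third on the plus strand at chr11:120484387-120484686 and the last on the minus strand at chr13:14612988-14613287.

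The motifs searched on both strands were GCGCATGCG for NRF1, CCGGAAGT for ETS factors such as GABP, and AAGATGGCG for YY1. These are factors with known roles in transcription of nuclear genes for mitochondrial proteins. The NRF1 letters occurred in 7 of the 67 genes (10.4%), against 3.09% of 14452 genes on the arrays with a start region. The ETS letters occurred in 12 of the 67 (17.9%), against 6.62% of those genes. The YY1 letters occurred in 8 of the 67 (11.9%), against 2.53%. At least 1 of the 3 stood in 26 genes (38.8%), against 11.5%. In Mrps22 the ETS letters began 11 bases before the start. In Mrpl32 the NRF1 letters began 87, 86 and 23 bases before it, and the first 2 of these are the same palindrome read on both strands. Of the 6 genes past the test that had a start region, Mrps22 alone held an exact match, and near matches were not searched. The median difference between groups, MFAP5 minus Control, was -0.30 in the 26 genes with a match and -0.33 in the 41 without. By motif, it was -0.40 in the 7 genes with the NRF1 letters and -0.29 in the 60 without, -0.12 in the 12 with the ETS letters and -0.33 in the 55 without, and -0.26 in the 8 with the YY1 letters and -0.32 in the 59 without. These splits were not tested. The share of G and C had a median of 58% in these genes, against 58.7% in the 14452 genes, and CpG pairs had medians of 21 and 17. These letters are a description of the windows, and binding was not measured.

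In MFAP5 samples 7 of the 76 mitochondrial ribosomal protein genes fell and none rose (limma, adjusted p over all 18193 genes under 0.05). The 7 make up 9.21% of the genes, where 2.79% of all genes fell, and 0.759% of all genes rose. The genes that fell were Mrps22, Mrpl49, Mrpl12, Mrps7, Mrpl20, Mrpl4 and Mrpl16, with signals in MFAP5 samples 0.539 to 0.712 times those in Control. At an unadjusted p under 0.05, 46 of the 76 were lower (60.5%), against 14.4% of all genes, and 0 were higher, against 5.33%. Differences were small throughout: they ran from -0.89 to 0.18 on the log2 scale, with a median of -0.31, while the median of all genes was -0.08. The estimate was negative in 73 of the 76 genes, against 65.6% of all genes.

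The separation between arrays was wider than the count of calls. Every MFAP5 array lay below every Control array in 52 of the 76 genes (68.4%), as it did in 17.8% of all genes. The groups overlapped in 23 genes, and Mrps9 was the only gene with every MFAP5 array above every Control array, as in 6.51% of all genes. A further 10 genes had an adjusted p between 0.05 and 0.1 (13.2%, against 3.38% of all genes).

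**Figure D1:**
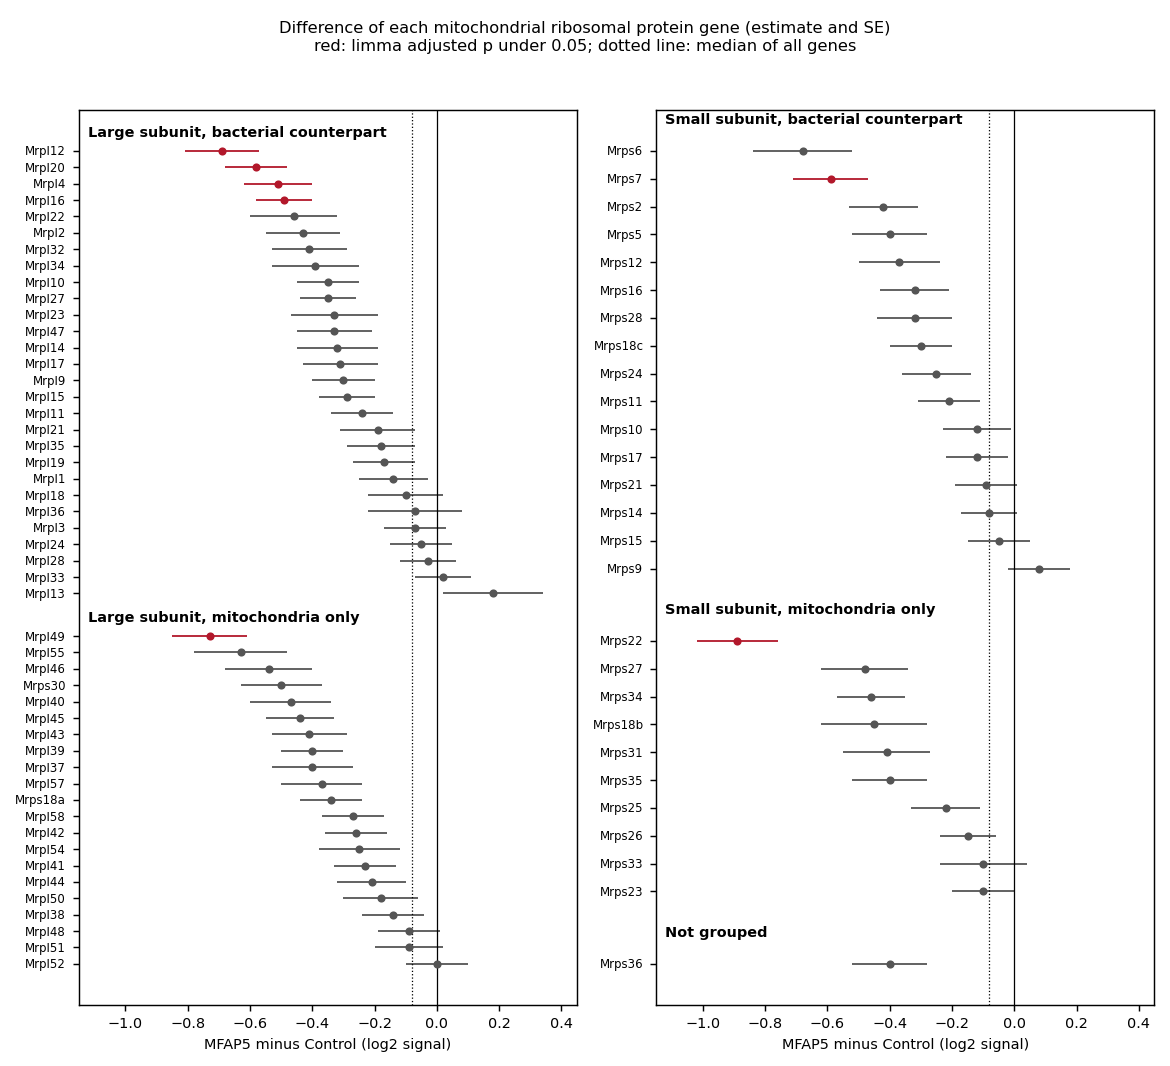
Each point is the log2 difference MFAP5 minus Control of a mitochondrial ribosomal protein gene and its bar the limma SE, with genes grouped by subunit and by whether a bacterial counterpart exists. Red marks the 7 genes past the test, Mrps22 to Mrpl16, and 73 of 76 points lie left of 0.

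Mrps22 encodes a small-subunit protein found in mitochondria only, and variants of the human gene cause a combined deficiency of oxidative phosphorylation. Its relative signals were -0.81, -0.41 and -0.35 in MFAP5 replicates 1 to 3, against 0.37, 0.38 and 0.35 in Control replicates 1 to 3. The Control arrays lay close together and MFAP5 replicate 1 was the lowest. The difference was -0.89 ± 0.13 (SE, n = 3 each, limma adjusted p = 0.00958), the largest among the 76 genes.

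Mrps7, the other small-subunit gene that fell, has a bacterial counterpart that binds ribosomal RNA in the head of the subunit. It had -0.33, -0.25 and -0.15 in MFAP5 samples and 0.15, 0.39 and 0.50 in Control samples. Control replicate 1 was the Control nearest to the MFAP5 arrays. The difference was -0.59 ± 0.12 (limma adjusted p = 0.0343).

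Among the large-subunit genes, Mrpl49 encodes a protein without a bacterial counterpart. Its signals were -0.44, -0.28 and -0.20 in MFAP5 samples, against 0.22, 0.51 and 0.52 in Control samples, with no overlap. It differed by -0.73 ± 0.12 (limma adjusted p = 0.0165), and it alone of the 7 had more than 1 probe set, with differences of -0.77 and -0.68.

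Mrpl12 encodes a protein of the flexible stalk that recruits translation factors, and in human cells it has also been found bound to the mitochondrial RNA polymerase. It had -0.49, -0.29 and -0.20 in MFAP5 samples and 0.20, 0.41 and 0.49 in Control samples. The groups did not overlap, and the gap ran between MFAP5 replicate 3 and Control replicate 1. The difference was -0.69 ± 0.12 (limma adjusted p = 0.02). Mrpl10 and Mrpl11, which form the base of the stalk, had differences of -0.35 (limma adjusted p = 0.109) and -0.24 (limma adjusted p = 0.234), and neither passed the test, although no MFAP5 array of either reached a Control array.

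Mrpl20, Mrpl4 and Mrpl16 have bacterial counterparts that bind ribosomal RNA of the large subunit. In bacteria, that of Mrpl20 acts early in assembly, that of Mrpl4 lines the exit tunnel and that of Mrpl16 lies near the site where tRNA enters. Mrpl20 had -0.27, -0.27 and -0.22 in MFAP5 samples and 0.22, 0.38 and 0.40 in Control samples, a difference of -0.58 ± 0.10 (limma adjusted p = 0.0159). The MFAP5 arrays of Mrpl20 spanned a narrower range than its Control arrays. Mrpl4 had -0.24, -0.22 and -0.14 in MFAP5 samples and 0.14, 0.42 and 0.37 in Control samples, a difference of -0.51 ± 0.11 (limma adjusted p = 0.0415). Mrpl16 had -0.26, -0.24 and -0.21 in MFAP5 samples and 0.21, 0.29 and 0.26 in Control samples, a difference of -0.49 ± 0.09 (limma adjusted p = 0.0248). Mrpl16 had the smallest difference of the 7 and also little spread within either group.

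**Figure D2:**
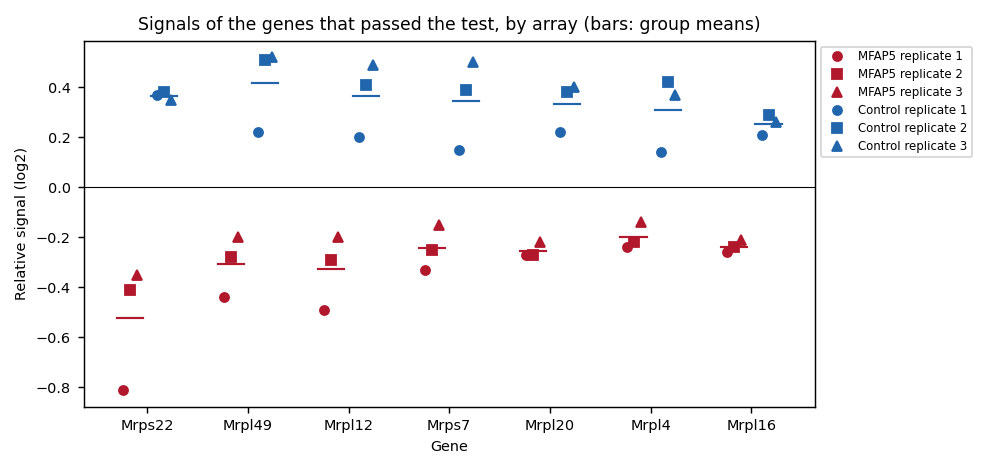
Relative log2 signal of the 7 genes past the test on each array, MFAP5 in red left of Control in blue, with the marker shape giving the replicate and a bar at each group mean. In each gene every MFAP5 array lies below every Control array, and Mrps22 on MFAP5 replicate 1 is the lowest point at -0.81.

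Several differences of like size missed the test. Mrps6, a small-subunit protein with a bacterial counterpart, had -0.73, -0.38 and -0.10 in MFAP5 samples and 0.18, 0.39 and 0.24 in Control samples, a difference of -0.68 ± 0.16 (limma adjusted p = 0.0575). Its MFAP5 arrays were all below Control but far apart. Mrpl55, a large-subunit protein of mitochondria only, had a difference of -0.63 ± 0.15 (limma adjusted p = 0.0603). Mrps34, a small-subunit protein of mitochondria only, differed by -0.46 (limma adjusted p = 0.0539). Mrps30 and Mrps18a, which sit in the large subunit in spite of their symbols, differed by -0.50 (limma adjusted p = 0.0695) and by -0.34 (limma adjusted p = 0.113).

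Some of these proteins are known for a particular or a second role. Mrps12, whose bacterial counterpart takes part in decoding, had a difference of -0.37 (limma adjusted p = 0.174). Mrpl41, also described in human cells as a partner of BCL2 and p53, differed by -0.23 (limma adjusted p = 0.245). Mrps36, which is now known as an adaptor of the alpha-ketoglutarate dehydrogenase complex, differed by -0.40 (limma adjusted p = 0.118). None of these 3 passed the test.

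The 3 positive estimates were those of Mrpl13, Mrps9 and Mrpl33, all with bacterial counterparts. Mrpl13 had -0.00, -0.02 and 0.04 in MFAP5 samples and 0.21, -0.41 and -0.32 in Control samples, so that the MFAP5 arrays lay within the Control range. Its difference was 0.18 ± 0.16 (limma adjusted p = 0.56). Mrps9 differed by 0.08 and Mrpl33 by 0.02, both smaller than their SEs of 0.10 and 0.09.

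Each structural class held at least 1 gene that fell and had a negative median, and differences between the classes were not tested. Of 28 large-subunit genes with a bacterial counterpart, 4 fell, 26 had negative estimates and the median difference was -0.30. Of 21 large-subunit genes found in mitochondria only, 1 fell, all 21 had negative estimates and the median was -0.34. Among 16 small-subunit genes with a bacterial counterpart 1 fell, with a median of -0.27, and among 10 found in mitochondria only 1 fell, with a median of -0.41. The 6 genes at the polypeptide exit had a median of -0.33 and the 6 of the central protuberance, which contacts tRNA, a median of -0.24, with no gene past the test in either. At an unadjusted p under 0.05, 5 of the 6 exit genes and 3 of the 6 protuberance genes were lower. As background to these counts, 2.79% of all genes fell and 14.4% were lower at an unadjusted p under 0.05. The all-gene median was -0.08.

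**Figure D3:**
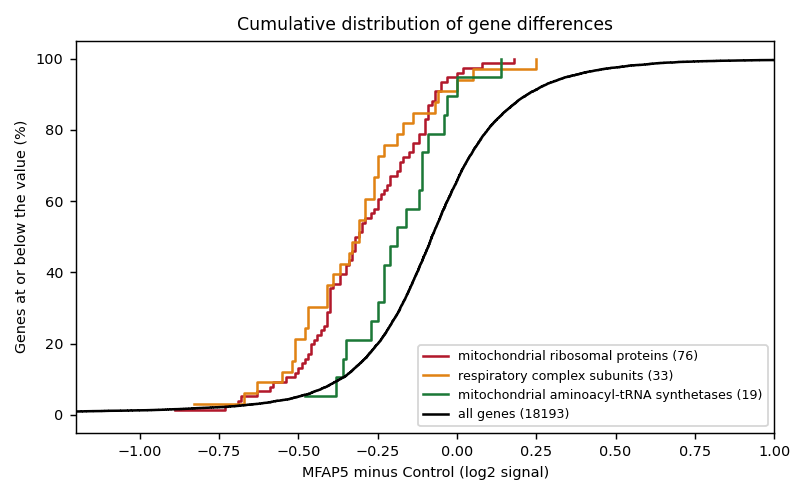
Cumulative percent of genes (vertical axis) at or below each log2 difference MFAP5 minus Control (horizontal axis, shown from -1.2 to 1) for the 76 mitochondrial ribosomal protein genes, 33 respiratory complex subunits, 19 mitochondrial aminoacyl-tRNA synthetases and all 18193 genes. The first 2 curves cross the middle at -0.31, the synthetases at -0.19 and all genes at -0.08.

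The number of probe sets behind a gene went with the calls. Of the 34 genes with 1 probe set, 6 fell (17.6%), against 3.35% of all genes with 1 probe set, and all 34 had negative estimates with a median of -0.41. Of the 42 genes with several, 1 fell (2.38%), against 2.22% of all genes with several, and the median was -0.21. In 18 of those 42 the probe sets differed in sign.

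Tested one by one, 8 of the 156 probe sets were lower (5.13%, against 1.72% of 45037 probe sets) and none was higher (against 1.56% of all probe sets, with 1 of the 156 higher at an unadjusted p under 0.05). Estimates were negative in 133 of the 156 (85.3%, against 59.4% of all probe sets). Every MFAP5 array lay below every Control array in 79 of them (50.6%, against 14.2%). Probe sets of Mrpl27, Mrpl47 and Mrps31 fell, with differences of -0.55, -0.55 and -0.54 (limma adjusted p = 0.0408, 0.0424 and 0.0487), where the means of these genes missed the test. The single probe sets of Mrps7 and Mrpl4 missed it here (limma adjusted p = 0.0513 and 0.0628).

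The probe sets of Mrps9 and Mrpl13 differed most within a gene, followed by Mrpl48 and Mrps11, whose ranges are equal to 2 decimals. In Mrps9 they ran from -0.19 to 0.57. In Mrpl13, 1 probe set differed by -0.26 and the other 3 by 0.17, 0.30 and 0.50. In Mrpl48, a protein of the central protuberance, they differed by -0.47, -0.04 and 0.24. In Mrps11, a small-subunit protein with a bacterial counterpart, they differed by -0.57 and 0.14. Names ending in _x_at mark probe sets that may cross-hybridize with other transcripts, and the 14 of them had a median of -0.01, with 6 positive. The 102 ending in _at alone had a median of -0.26, the 9 ending in _s_at, which are shared by transcripts, one of -0.40, and the 31 ending in _a_at, which read transcripts of 1 gene, a median of -0.32.

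How many genes passed depended on which arrays were used. Without Control replicate 1, 36 of the 76 fell and 1 rose, Mrpl13, with a difference of 0.37 (limma adjusted p = 0.0387). In that fit 10.5% of all 18193 genes fell and 4.18% rose, so calls grew across the array. Without Control replicate 2 or Control replicate 3 limma called 0 of the 76, where 1.26% and 1.13% of all genes fell, and 31 and 33 of the 76 had an unadjusted p under 0.05. Without MFAP5 replicate 1 it called 1 gene lower, Mrps22 (1.62% of all genes). Without MFAP5 replicate 2 it called Mrps22 and Mrpl49 (1.91% of all genes), and without MFAP5 replicate 3 it called 5 (2.34% of all genes). Mrps22 itself missed the test without Control replicate 2 (limma adjusted p = 0.054) or Control replicate 3 (limma adjusted p = 0.0556). The median difference of the 76 genes moved less, between -0.36 and -0.24, as arrays were left out.

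Control replicate 1 stood apart from the other Control arrays over all genes. Its correlation with them across 18193 genes was 0.05 and 0.10, against 0.70 between Control replicates 2 and 3, where genes are not independent replicates. Spike-in signals were -0.0381, -0.00776 and -0.00651 on MFAP5 arrays and -0.322, 0.639 and 0.653 on Control arrays, so Control replicate 1 was the lowest there too. The 3′ minus 5′ difference of beta-actin, a sign of RNA quality, was 0.144, 0.0819 and 0.036 on MFAP5 arrays and -0.00479, -0.0526 and -0.0318 on Control arrays, all MFAP5 above (exact permutation test, two-sided, p = 0.1, the smallest that 3 against 3 allows). That of Gapdh was 0.0855, -0.038 and 0.0342 on MFAP5 arrays and -0.161, 0.0327 and -0.0327 on Control arrays. The groups overlapped for Gapdh (exact permutation test, two-sided, p = 0.4). Both measures come from centred probe sets, so they are relative. The part of these measures in the result was not tested. A fit with the spike-in level as covariate cannot part it from the gap between Control replicate 1 and the other Control arrays. In it 3 of the 76 genes fell, against 1.74% of all genes. In that fit 73 of the 76 estimates were negative and their median was -0.25.

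The mitochondrial ribosomal protein genes were also below Control replicate 1 taken alone. The median of MFAP5 minus Control replicate 1 was -0.20 in the 76 genes and -0.02 in all genes, and against Control replicates 2 and 3 it was -0.36 and -0.11. Every MFAP5 array lay below Control replicate 1 in 63 of the 76 genes (82.9%), against 31.1% of all genes. Array medians of the 76 genes were -0.16, -0.07 and -0.09 in MFAP5 samples and 0.07, 0.24 and 0.21 in Control samples. MFAP5 replicate 1 was the lowest of the 6 arrays in 45 of the 76 genes (59.2%), against 25.8% of all genes.

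**Figure D4:**
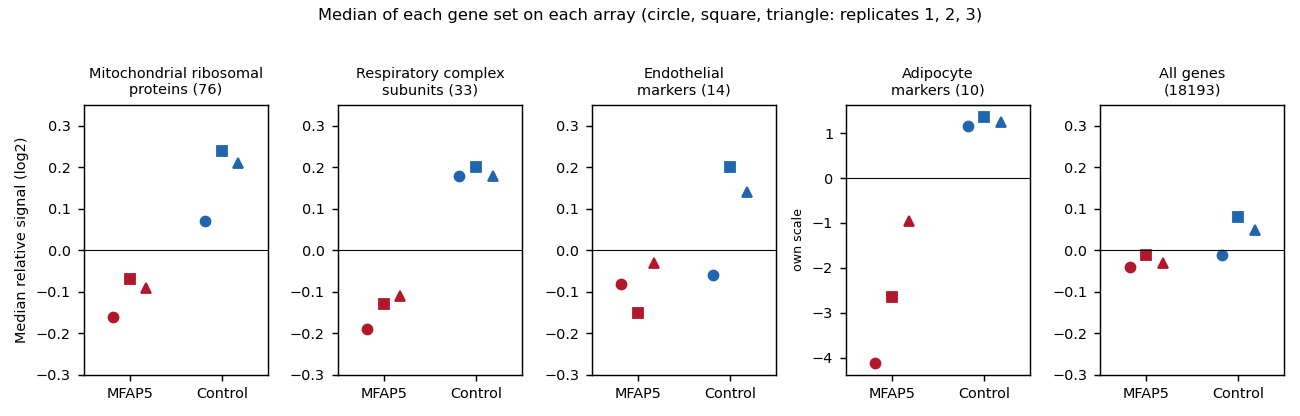
Median relative log2 signal of 5 gene sets on each array, MFAP5 in red left of Control in blue, with marker shapes for replicates 1 to 3 and an axis of its own for the adipocyte markers. The 76 mitochondrial ribosomal protein genes sit between -0.16 and -0.07 on MFAP5 arrays and between 0.07 and 0.24 on Control arrays, while adipocyte markers run from -4.11 to -0.96 and from 1.16 to 1.35.

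Markers of fat cells separated the same arrays. As background to the marker counts on all arrays, 2.79% of all genes fell and 0.759% rose. Of 10 adipocyte markers measured, 9 fell, with array medians of -4.11, -2.64 and -0.96 in MFAP5 samples and 1.16, 1.35 and 1.26 in Control samples, and 4 of 5 brown adipocyte markers fell, with medians of -0.87, -0.69 and -0.58 in MFAP5 samples and 0.58, 0.81 and 1.04 in Control samples. The remaining brown adipocyte marker, Dio2, which makes active thyroid hormone, had a difference of 0.52 (limma adjusted p = 0.21), with every MFAP5 array above every Control array. Of 14 endothelial markers none passed the test (3 at an unadjusted p under 0.05, against 19.7% of all genes). Their array medians were -0.08, -0.15 and -0.03 in MFAP5 samples and -0.06, 0.20 and 0.14 in Control samples. Their estimates were negative in 11 and positive in 3, with a median of -0.18, against 65.6% negative in all genes. The lowest was that of Tek, at -0.75 (limma adjusted p = 0.0592). Since values are centred, whether any defining marker was near 0 cannot be read. In samples of many cells, fewer cells of a type and less RNA per cell cannot be told apart, and the part of these markers in the fall of the ribosomal protein genes was not tested. Among 8 neutrophil markers 3 fell, among 9 muscle markers 1, and among 10 macrophage, 6 mesothelial and 2 red cell markers none passed the test. Of 8 fibroblast markers 1 fell, Pi16, while the other 7 had positive estimates and the list median was 0.27. An unadjusted p under 0.05 was reached by 4 of the 8, against 19.7% of all genes. These were Pi16, which was lower, and Col1a2, Dcn and Lum, which were higher. Without Control replicate 1, 7 adipocyte, 4 brown adipocyte, 4 neutrophil and 2 endothelial markers fell, and 3 fibroblast markers rose while 1 fell. Of the macrophage markers 1 then fell and 1 rose. In that fit 10.5% of all genes fell and 4.18% rose.

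Mitochondrial ribosomal proteins listed under other symbols were Dap3, Ptcd3, Gadd45gip1 and Chchd1. Dap3, a GTP-binding protein of the small subunit, differed by -0.43 ± 0.11 (limma adjusted p = 0.0683), and Ptcd3, another of its proteins, by -0.39 ± 0.10 (limma adjusted p = 0.0767). None of the 4 measured passed the test, and 3 had an unadjusted p under 0.05, against 19.7% of all genes. Of 19 assembly factors of the mitochondrial ribosome 1 fell (2.79% of all genes), with a list median of -0.12 (-0.08 in all genes). That gene was Mrm3, which methylates the ribosomal RNA of the large subunit: it had -0.20, -0.21 and -0.17 in MFAP5 samples and 0.17, 0.71 and 0.86 in Control samples, a difference of -0.77 ± 0.17 (limma adjusted p = 0.0458). Mtg1, a GTPase of large-subunit assembly, differed by -0.40 (limma adjusted p = 0.104). Without Control replicate 1, 3 of the 4 and 6 of the 19 genes fell, and 1 assembly factor rose, in a fit where 10.5% of all genes fell and 4.18% rose.

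No gene passed among 13 mitochondrial translation factors, 19 aminoacyl-tRNA synthetases and related enzymes, and 10 genes of mitochondrial DNA and transcription, with 6, 3 and 3 at an unadjusted p under 0.05. Their medians were -0.26, -0.19 and -0.21. Of all genes 19.7% had an unadjusted p under 0.05 and 2.79% fell, with a median of -0.08. The smallest p-values belonged to the elongation factor Gfm1, at -0.39 (limma adjusted p = 0.0863), the initiation factor Mtif3, at -0.53 (limma adjusted p = 0.125), Gatc, a subunit of the amidotransferase that makes glutaminyl-tRNA, at -0.48 (limma adjusted p = 0.0603), and Pars2, the prolyl-tRNA synthetase, at -0.36 (limma adjusted p = 0.197). Tefm, the elongation factor of mitochondrial transcription, differed by -0.63 (limma adjusted p = 0.0516) and Polg2, the accessory subunit of the mitochondrial DNA polymerase, by -0.52 (limma adjusted p = 0.0611). Without Control replicate 1, 5, 4 and 2 genes of these 3 lists fell, against 10.5% of all genes.

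Over all genes, 2.79% fell in the fit on all arrays, with a median of -0.08. The import machinery, which brings the ribosomal proteins into the organelle, had 4 of 21 genes lower and a median of -0.27. They were Grpel1, a cofactor of the matrix Hsp70, at -0.85 (limma adjusted p = 0.00752), the small carriers Timm8a1, at -0.70 (limma adjusted p = 0.0229), and Timm10, at -0.63 (limma adjusted p = 0.0299), and the outer membrane pore Tomm40, at -0.53 (limma adjusted p = 0.0487). Of 13 chaperones and proteases 1 fell, Lonp1, the matrix protease, at -0.54 (limma adjusted p = 0.0487), with a list median of -0.31; Afg3l2, an inner membrane protease, differed by -0.31 (limma adjusted p = 0.113). Without Control replicate 1, 8 import genes fell and 1 rose, and 3 chaperones and proteases fell and 1 rose, against 10.5% of all genes lower and 4.18% higher.

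Of 33 nuclear-encoded subunits of the respiratory complexes 8 fell, where 2.79% of all genes fell. The median of the subunits, -0.31, equalled that of the 76 ribosomal protein genes, against -0.08 in all genes. Cyc1, cytochrome c1 of complex III, had the smallest p, with a difference of -0.83 ± 0.11 (limma adjusted p = 0.00415), followed by Uqcrfs1, the iron-sulfur protein of the same complex, at -0.67 ± 0.10 (limma adjusted p = 0.01). Without Control replicate 1, 16 of the 33 fell, against 10.5% of all genes. Among 9 regulators of mitochondrial biogenesis only Ppargc1a, a transcriptional coactivator high in brown fat, passed the test, at -0.91 ± 0.11 (limma adjusted p = 0.00247), and Myc differed by 0.44 (limma adjusted p = 0.149). The median of the 9 was 0.05. The 50 cytosolic ribosomal protein genes, a list chosen after the data were seen, had a median of -0.01. None passed the test and 4 had an unadjusted p under 0.05, against 19.7% of all genes. That the mitochondrial and cytosolic ribosomal proteins differ from each other was not tested.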

How the data were processed

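Total RNA of 6 samples was labelled with biotin during amplification and read on 1-colour arrays, per the labels' protocols. MAS5 is the tool named in the submitters' processing notes; how it was scaled those notes do not say. Relative log2 signals were deposited, as read from the values: positive and negative, with a median of 0 over the arrays in each probe set. The base and the direction (more signal, higher value) are not stated there; a natural log would make every printed log2 difference too small. No scan date or batch was found in the labels. Precision is limited by the number of arrays.

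Symbols came from the platform annotation. Of 45037 probe sets that are no controls of the array, 34945 had 1 symbol, which gave 18193 genes by averaging. Left out were 4 probe sets with a member symbol and a further symbol, so Mrpl30 and Mrpl53 have no value. MFAP5 was compared with Control in R 4.3.3 by limma 3.58.1 (lmFit, then eBayes with no trend, two-sided). Adjustment was Benjamini-Hochberg over all genes or all probe sets, with a threshold of 0.05. On simulated data with independent normal noise, the procedure recovered 30% of 50 genes given a difference of 0.5, and 76% of 50 given 1. For probe sets it recovered 0% and 58%. Differences are MFAP5 minus Control. The members, gene lists and marker lists were chosen with earlier results of these data known, so no test of a list was run. Genes named were those past the test, those with the largest differences either way, the smallest p of each structural class and related list, stalk members, members with a second role, and those with the widest range of probe sets; Mrpl32, Pi16, Dio2, Mrps11 and the probe sets of Mrpl27, Mrpl47 and Mrps31 were added after their values were seen. Alternatives were array weights, median centring of each array, quantile normalization, a variance trend, the probe set with the largest SD, the spike-in mean of 14 probe sets as covariate, updated symbols, the replicate number as a block, and leaving out each sample.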

Additional observations from a re-analysis of the deposited data

How the results depend on the processing

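The 7 mitochondrial ribosomal protein genes that fell were the same genes under median centring of each array, quantile normalization and updated symbols, and they were among the 10 genes lower under a variance trend (3.3% of all genes). Array weights called 43 genes lower, in a fit where 15.8% of all genes were lower and 6.18% higher. The weight was 3.29 for Control replicate 3, 0.308 for Control replicate 1 and 0.899 to 1.14 for the other arrays. The Control mean of that fit therefore rested mostly on Control replicate 3. The probe set with the largest SD of each gene left 3 lower (2.75% of all genes) and moved the median difference to -0.40, and the spike-in covariate left 3 (1.74%). Leaving out 1 sample gave 0 to 36 genes lower (1.13% to 10.5% of all genes), 0 to 1 higher and a median between -0.36 and -0.24. For probe sets, array weights called 57 lower and 2 higher, the spike-in covariate 2 lower, and leaving out 1 sample 0 to 49 lower and 0 to 3 higher. The shares of all probe sets called in these fits were not counted, so these probe set counts cannot be read against a background. Estimates near 0 changed sign: Mrpl48 was 0.24 with the probe set of the largest SD, Mrpl13 -0.02 with the spike-in covariate, and Mrpl33 between -0.02 and 0.05 as samples were left out. Leaving out a sample also lowers the number of arrays, and the cause of the changes was not tested for any setting. With the replicate block 9 genes fell (3.24% of all genes), adding Mrps27 and Mrps6, and the median was -0.31. The labels share only a number: deviations of same-numbered samples from their group means correlated at 0.18, 0.0555 and 0.0719 across 18193 genes, so the numbers were not taken as pairs. Centring removed signal over background, so no filter on dim probe sets was run and what low signal limits cannot be read.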
